A study of Homo sapiens with 2 samples.

Results

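SR proteins and heterogeneous nuclear ribonucleoproteins (hnRNPs) are the RNA-binding proteins that most often decide which exons of a pre-mRNA are kept. The genes described here are the protein-coding genes whose symbol is SRSF followed by a digit or starts with HNRNP, 39 of the 58884 genes in the deposited table. They comprise 12 SRSF genes and 27 HNRNP genes. RNA came from TPC-1, an established line of human papillary thyroid carcinoma with a rearranged RET gene. One culture had received siRNA that targets XPR1, the phosphate exporter of human cells, and the other a control siRNA. With 1 library of each, no difference below has a replicate check, and the conditions cannot be tested against each other. The sources used here give neither which siRNAs were used nor how long cells were kept after transfection.

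SR proteins bind exonic enhancers through RNA recognition motifs and recruit the spliceosome through a tail rich in arginine and serine. Kinases of the SRPK and CLK families phosphorylate that tail, which controls entry into the nucleus and release from nuclear speckles. The hnRNPs coat nascent transcripts, often oppose SR proteins at the same exons, and also act in mRNA export, stability and translation. Many genes of both kinds hold the level of their own mRNA by splicing in an exon with a premature stop codon, which sends the transcript to nonsense-mediated decay. Gene-level values such as those used here count productive and unproductive transcripts together.

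Values are TPM, a share of the library's reads corrected for gene length. For most members the values match division by the union of all annotated exons. Among expressed members this length runs from 1372 bases for HNRNPA1L2 to 22512 for HNRNPU. TPM of genes with many annotated isoforms or retained introns can be understated by that length, so orders and ratios between genes hold for this scale only, while the ratio of 1 gene between the libraries does not depend on it. From the steps in the TPM values the libraries held about 15153200 and 15777900 counted reads (XPR1 siRNA and control siRNA), and a gene of 2000 exonic bases gains 0.123 and 0.118 TPM per read. XPR1 itself was 5.31 TPM in the XPR1-siRNA library, against 39.2 TPM in the control library, which leaves 13.5% (95% Clopper-Pearson interval 11.6% to 15.7%, from 192 reads with XPR1 siRNA and 1474 with control siRNA). Of the thyroid markers, PAX8 was 409 TPM with XPR1 siRNA and 588 TPM with control siRNA, and FOXE1 was 13.7 TPM with XPR1 siRNA and 11.1 TPM with control siRNA. Thyroglobulin (TG) was 0.929 TPM with XPR1 siRNA and 1.06 TPM with control siRNA, and NKX2-1, TSHR and the iodide transporter SLC5A5 were listed at 0 in both libraries. Of the epithelial keratins, KRT18 was 94.0 TPM with XPR1 siRNA and 136 TPM with control siRNA. KRT8 was 37.0 TPM with XPR1 siRNA and 49.8 TPM with control siRNA, and KRT7 was 3.39 TPM with XPR1 siRNA and 11.1 TPM with control siRNA. KRT19 was higher, at 1.05 TPM with XPR1 siRNA and 0.304 TPM with control siRNA, and EPCAM was listed at 0. Of the fibroblast and endothelial markers, COL1A1 was 6.67 TPM with XPR1 siRNA and 1.04 TPM with control siRNA, PECAM1 was 0.859 TPM with XPR1 siRNA and 1.47 TPM with control siRNA, and COL3A1, PDGFRA, VWF and CDH5 were at most 0.209 TPM. The leukocyte markers PTPRC, CD3E and CD68 were at most 0.228 TPM. The part of these differences in the results below was not tested.

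Of the 39 genes, 34 had a mean of at least 1 TPM over the 2 libraries, and 32 a mean of at least 10 TPM. All 12 SRSF genes were among the 34, with means between 2.85 TPM for SRSF12 and 175 TPM for SRSF6. The 22 HNRNP genes had means between 7.17 TPM for HNRNPA1L3 and 713 TPM for HNRNPA1. On this scale HNRNPA1 ranked 113 among the 11698 protein-coding genes whose mean was 1 TPM or more, HNRNPK ranked 165 and HNRNPF 235. Summed, the HNRNP genes held 3970.4 TPM in the XPR1-siRNA library and 3739 TPM in the control library. The SRSF genes summed to 949 TPM with XPR1 siRNA and 1056 TPM with control siRNA. The ratio of the sums was 1.062 for HNRNP genes and 0.898 for SRSF genes, against 1.027 for all protein-coding genes. The 3 other scalings used below divide the values of the XPR1-siRNA library by 1.039, 1.050 and 1.065. Whether the HNRNP sum is higher thus depends on the scaling. In RNA of a whole culture, a lower share in every cell and a loss in some of the cells cannot be told apart.

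**Figure D1:**
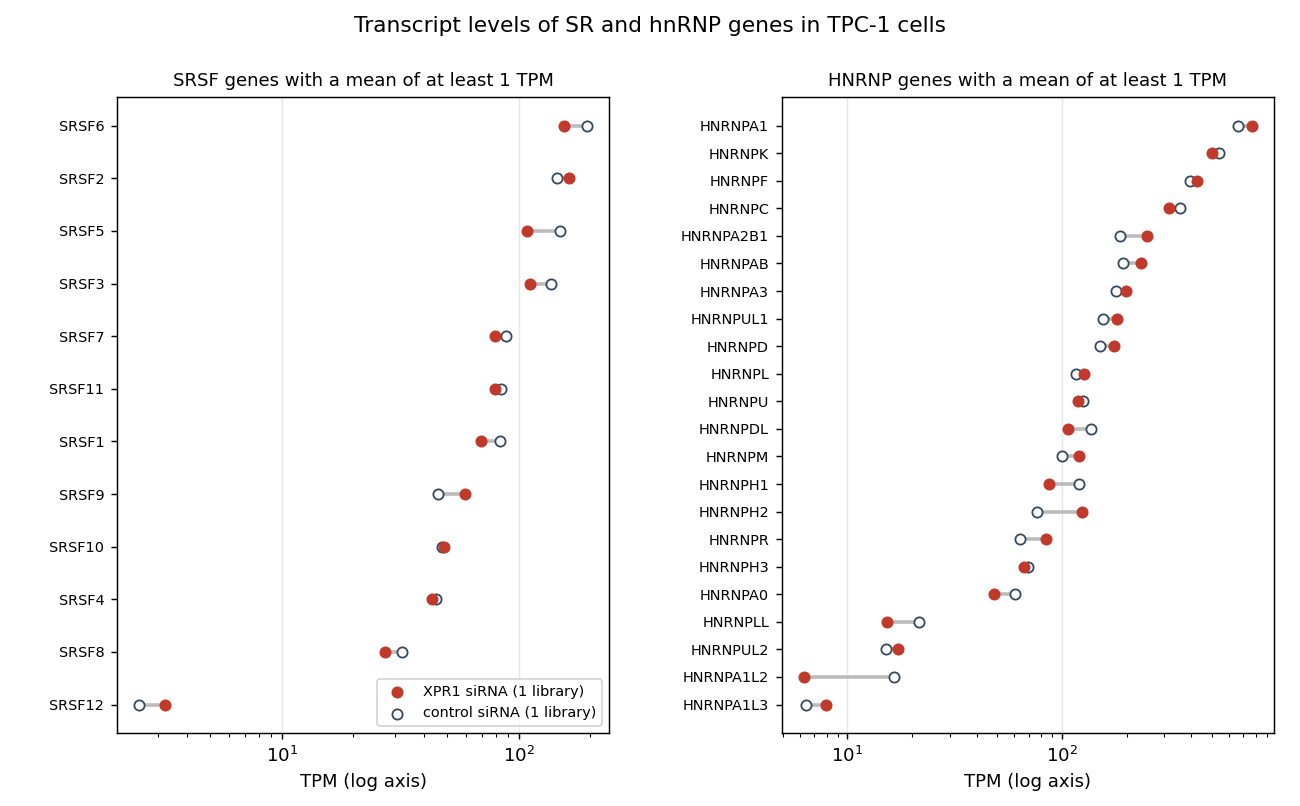
TPM (log axis) of the 12 SRSF genes and the 22 HNRNP genes at or above a mean of 1 TPM, filled points for the XPR1-siRNA library and open points for the control library, 1 library each. Points of most genes lie close together, and the widest gap is that of HNRNPA1L2, at 6.28 TPM with XPR1 siRNA and 16.4 TPM with control siRNA.

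Most of these genes differed little between the libraries. On the log2(TPM + 1) scale, 1 of the 34 genes was at least 1.5-fold higher in the XPR1-siRNA library and 1 at least 1.5-fold lower. Among all 16319 genes whose mean was 1 TPM or more, 21.7% were higher and 16.6% lower by that measure, and among the 8264 protein-coding genes whose mean was 10 TPM or more 18.5% and 11.2% were. The higher gene was HNRNPH2 and the lower one HNRNPA1L2. At 2-fold, HNRNPA1L2 alone was lower and none was higher, against 8.57% and 10.4% of all genes. The ratios of the other 32 genes, XPR1 siRNA over control siRNA, lay between 0.710 for HNRNPLL and 1.33 for HNRNPA2B1. These genes have many reads, and 13 of the 34 had a counting interval above 1 and 15 an interval below 1, so small differences exceed counting error on the deposited scale. Other scalings of the libraries gave 10 or 11 genes above 1 and 17 below. HNRNPF and HNRNPL then had intervals that covered 1 under all 3 scalings, and SRSF2 under 2 of them, while SRSF4 and HNRNPH3 had intervals below 1 under all 3. Among all genes 32.3% had an interval above 1 and 24.7% an interval below 1, and among the 8264 protein-coding genes 43.7% and 34.3% did. Counting intervals say nothing of the spread between cultures.

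**Figure D2:**
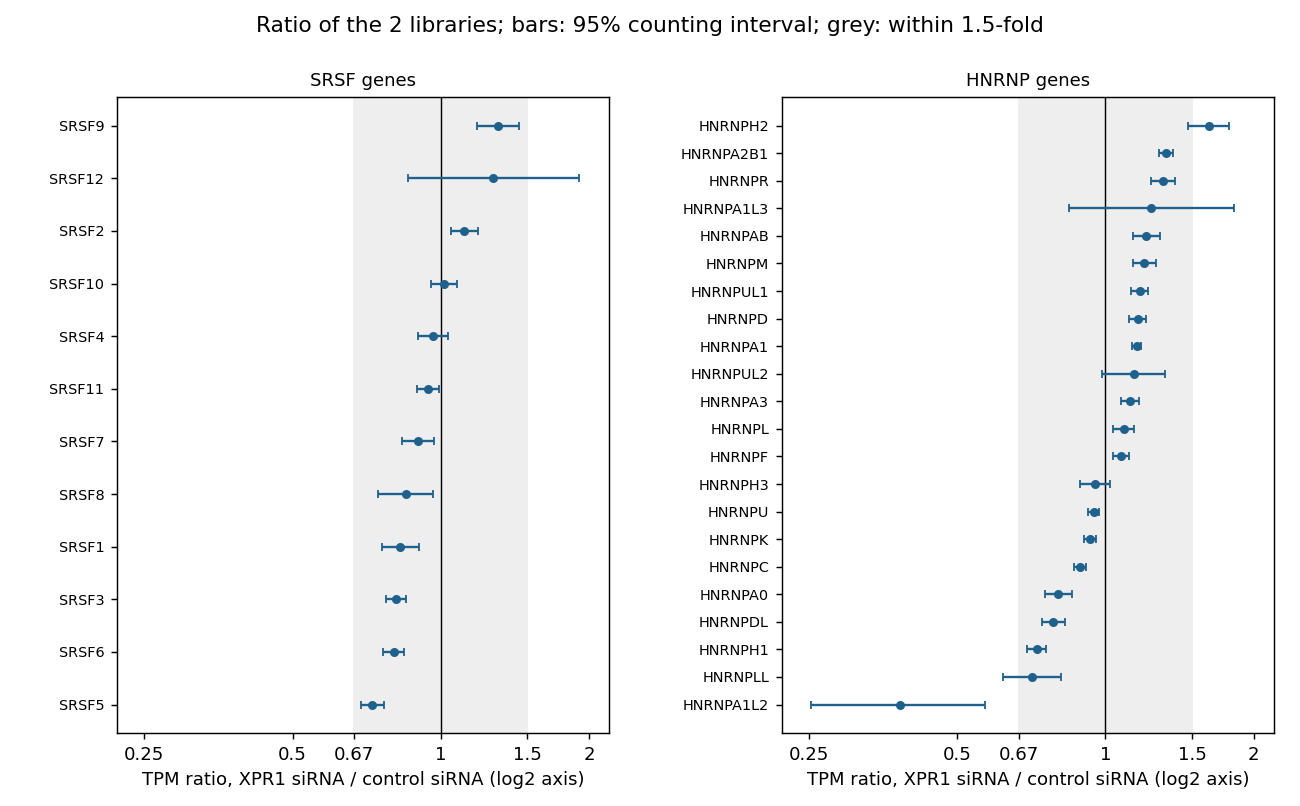
TPM ratio of each gene, XPR1-siRNA library over control library (log2 axis), with its 95% Clopper-Pearson interval, which covers counting error only. Outside the grey band of 1.5-fold lie HNRNPH2 at 1.62 and HNRNPA1L2 at 0.383.

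The SRSF genes had a median difference of -0.12 on the log2(TPM + 1) scale, with 8 of 12 below 0 and 4 above. The HNRNP genes had a median of 0.14, with 13 of 22 above 0 and 9 below. The median over all 16319 genes was 0.05, with 8874 above 0 and 7445 below. Over the 11698 protein-coding genes it was 0.10, with 6667 above 0 and 5031 below. None of the 12 SRSF genes passed 1.5-fold in either direction. Their counting intervals lay below 1 for 7 genes, above 1 for 2 and covered 1 for 3.

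SRSF5, SRSF6 and SRSF4 are related proteins with a pair of RNA recognition motifs. SRSF5 was 109 TPM with XPR1 siRNA and 149.8 TPM with control siRNA, a ratio of 0.727 (95% counting interval 0.689 to 0.766), the lowest ratio of the SRSF genes. SRSF6, the most abundant SRSF transcript of the control library, was 156 TPM with XPR1 siRNA and 194 TPM with control siRNA (ratio 0.803, 0.765 to 0.843). SRSF4 was 43.2 TPM with XPR1 siRNA and 44.8 TPM with control siRNA, and its interval of 0.901 to 1.04 covered 1 on the deposited scale. SRSF5 and SRSF6 were thus both lower in the XPR1-siRNA library beyond counting error.

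SRSF3, the smallest SR protein and an adaptor for mRNA export, was 111 TPM with XPR1 siRNA and 137 TPM with control siRNA (ratio 0.810, 0.773 to 0.848). SRSF7, its close relative with an added zinc knuckle, was 79.6 TPM with XPR1 siRNA and 88.6 TPM with control siRNA (ratio 0.898, 0.834 to 0.968). SRSF1, a promoter of exon inclusion that can transform cells when overproduced, was 69.2 TPM with XPR1 siRNA and 83.7 TPM with control siRNA (ratio 0.827, 0.758 to 0.902). All 3 were lower in the XPR1-siRNA library, by less than 1.5-fold. Of the exonic bases of SRSF1, 60.7% overlap other annotated genes, chiefly a gene without a symbol on the same strand (ENSG00000266086) that was listed at 0 in both libraries. The part of this overlap in the value of SRSF1 was not tested.

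SRSF9, the SR protein most like SRSF1, went the other way, with 59.6 TPM with XPR1 siRNA and 45.7 TPM with control siRNA (ratio 1.31, 1.18 to 1.44). Of the exonic bases of SRSF9, 46.2% overlap exons of GATC on the opposite strand, and the library kit does not mark strand. GATC itself was 25.2 TPM with XPR1 siRNA and 26.8 TPM with control siRNA. The part of shared reads in the value of SRSF9 was not tested.

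SRSF2, a protein found in nuclear speckles, was 163 TPM with XPR1 siRNA and 146 TPM with control siRNA (ratio 1.12, 1.05 to 1.19). Exons of MFSD11 on the opposite strand overlap 36.7% of its exonic bases, and MFSD11 was 6.39 TPM with XPR1 siRNA and 6.15 TPM with control siRNA. The part of shared reads was not tested here either. In the XPR1-siRNA library SRSF2 was the most abundant SRSF transcript, with 17.2% of the SRSF total against 13.8% in the control library, while SRSF6 held 16.4% with XPR1 siRNA against 18.4% with control siRNA. SRSF8, an intronless copy of SRSF2, was 27.4 TPM with XPR1 siRNA and 32.3 TPM with control siRNA (ratio 0.848, 0.747 to 0.963). SRSF2 and its copy thus lay on opposite sides of 1.

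Of the atypical members, SRSF10, which represses splicing when it is dephosphorylated, was near control with 48.4 TPM with XPR1 siRNA and 47.7 TPM with control siRNA, with an interval of 0.955 to 1.08. SRSF11 was 79.4 TPM with XPR1 siRNA and 84.4 TPM with control siRNA (0.893 to 0.992). SRSF12, a repressor of low abundance, was 3.20 TPM with XPR1 siRNA and 2.51 TPM with control siRNA from 59.1 reckoned reads with XPR1 siRNA and 48.1 with control siRNA, and its interval of 0.858 to 1.91 covers both no difference and a difference of over 1.5-fold.

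Among the hnRNPs, the A/B group binds exonic silencers and favours exon skipping. HNRNPA1, its best studied member, was 765 TPM with XPR1 siRNA and 661 TPM with control siRNA (ratio 1.16, 1.13 to 1.18). Its share of the HNRNP total was also higher, and it was the most abundant member in both libraries. It made up 19.3% of the HNRNP total with XPR1 siRNA against 17.7% with control siRNA. HNRNPA2B1, which also takes part in microRNA processing and sorting, was 248 TPM with XPR1 siRNA and 187 TPM with control siRNA (ratio 1.33, 1.29 to 1.37). HNRNPA3 was 199 TPM with XPR1 siRNA and 178 TPM with control siRNA (ratio 1.12, 1.08 to 1.17). These 3 abundant members were all higher in the XPR1-siRNA library. HNRNPA0, which binds AU-rich elements of cytokine mRNAs, was lower, with 48.5 TPM with XPR1 siRNA and 60.4 TPM with control siRNA (ratio 0.802, 0.753 to 0.855).

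HNRNPA1L2 (ENSG00000139675, chromosome 13, 52642425 to 52643796, plus strand of GRCh38) is an intronless copy of HNRNPA1 (ENSG00000135486, chromosome 12, 54280193 to 54287088, plus strand). It was 6.28 TPM in the XPR1-siRNA library, against 16.4 TPM in the control library, from 35 reads with XPR1 siRNA and 95 with control siRNA. That is 2.61-fold lower (1.76 to 3.97), the widest ratio of all 34 genes. The other expressed copy, HNRNPA1L3 (chromosome 16), was 7.94 TPM with XPR1 siRNA and 6.40 TPM with control siRNA, with an interval of 0.843 to 1.83, and 51.6% of its 50-base windows occur in other genes. The coding sequences of HNRNPA1L2 and HNRNPA1 have 960 bases each in GENCODE 29 and are identical at 945 of them, 98.4%. The longest run without a difference is 174 coding bases, and 43.1% of the windows of 50 bases in the HNRNPA1L2 coding sequence occur letter for letter in that of HNRNPA1. Over the whole HNRNPA1L2 transcript, 58.5% of such windows occur in transcripts of other genes. The sources used here do not say how reads that match several genes were counted, so the value of HNRNPA1L2 is uncertain, and the part of shared reads in it was not tested. HNRNPA1 has 74 annotated pseudogenes in the table, 6 of them with a mean of at least 1 TPM, which summed over all 74 to 35.6 TPM with XPR1 siRNA and 44.6 TPM with control siRNA. The highest, HNRNPA1P10, was 17.2 TPM with XPR1 siRNA and 18.0 TPM with control siRNA. The lowest ratio of the 6 was that of HNRNPA1P49, 1.91 TPM with XPR1 siRNA and 7.60 TPM with control siRNA (ratio 0.251, 0.0928 to 0.585). HNRNPA1P7 and HNRNPA1P59 were lower and HNRNPA1P14 and HNRNPA1P16 higher with XPR1 siRNA, each with an interval that covered 1.

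The F and H proteins bind runs of guanines and can act as enhancers or silencers depending on position. HNRNPH2 (ENSG00000126945, chromosome X, 101408295 to 101414133, plus strand of GRCh38) was 124 TPM with XPR1 siRNA, against 76.5 TPM with control siRNA, a ratio of 1.62 (1.47 to 1.78). HNRNPH1 (ENSG00000169045, chromosome 5, 179614178 to 179634784, minus strand) was 86.8 TPM with XPR1 siRNA and 119.8 TPM with control siRNA, a ratio of 0.725 (0.693 to 0.758). The TPM of HNRNPH2 over that of HNRNPH1 was 1.43 in the XPR1-siRNA library and 0.638 in the control library. Which of the 2 is higher within a library rests on the lengths used. HNRNPH2 had 1118.3 reckoned reads with XPR1 siRNA and 717.4 with control siRNA, and HNRNPH1 had 3342 with XPR1 siRNA and 4793 with control siRNA. The reckoned reads of HNRNPH2 were not whole numbers, so its interval is approximate. HNRNPF, the most abundant of the group, was 424 TPM with XPR1 siRNA and 394 TPM with control siRNA (ratio 1.08, 1.04 to 1.12), and HNRNPH3 was 66.4 TPM with XPR1 siRNA and 69.7 TPM with control siRNA (0.886 to 1.02).

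HNRNPH2 and HNRNPH1 encode closely similar proteins but differ enough in their mRNAs for reads to be told apart. Their coding sequences, of 1347 bases each, are identical at 87.6% of positions with a longest identical run of 50 bases. Their first 120 coding bases are shown because reads from such stretches separate the 2 genes, and capitals mark the 23 bases that differ:
HNRNPH2: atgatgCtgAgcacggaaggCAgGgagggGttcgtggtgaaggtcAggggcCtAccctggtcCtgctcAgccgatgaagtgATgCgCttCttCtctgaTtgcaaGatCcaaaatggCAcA
HNRNPH1: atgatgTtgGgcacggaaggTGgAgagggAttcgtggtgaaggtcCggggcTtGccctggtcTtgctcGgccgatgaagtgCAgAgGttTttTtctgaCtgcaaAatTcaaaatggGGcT

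HNRNPH2 shares 16.3% of its exonic bases with the readthrough gene RPL36A-HNRNPH2, which was listed at 0 TPM in both libraries.

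Among the AU-rich element binding proteins, HNRNPD, which promotes decay of such mRNAs, was 175 TPM with XPR1 siRNA and 151 TPM with control siRNA (ratio 1.16, 1.12 to 1.21). Its relative HNRNPDL, which lies on the same strand of chromosome 4, was 106 TPM with XPR1 siRNA and 136 TPM with control siRNA (ratio 0.784, 0.743 to 0.827). HNRNPAB was 233 TPM with XPR1 siRNA and 192 TPM with control siRNA (ratio 1.21, 1.14 to 1.29). HNRNPD and HNRNPAB were higher in the XPR1-siRNA library and HNRNPDL lower, each by less than 1.5-fold. Exons of PHYKPL on the opposite strand overlap 9.14% of the exonic bases of HNRNPAB, and the part of shared reads was not tested.

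HNRNPC, which binds uridine tracts and keeps Alu elements from being used as exons, was 314 TPM with XPR1 siRNA and 354 TPM with control siRNA (ratio 0.886, 0.862 to 0.911). HNRNPK, a KH-domain protein that binds cytosine-rich RNA and DNA, was 502 TPM with XPR1 siRNA and 540.0 TPM with control siRNA (ratio 0.931, 0.906 to 0.956). Both are among the 4 most abundant HNRNP transcripts, and both were slightly lower. HNRNPL, a CA-repeat binder, was 127 TPM with XPR1 siRNA and 117 TPM with control siRNA (ratio 1.09, 1.04 to 1.14). Its relative HNRNPLL, known for CD45 splicing in lymphocytes, was 15.4 TPM with XPR1 siRNA and 21.7 TPM with control siRNA (ratio 0.710, 0.619 to 0.811), the lowest ratio of any HNRNP gene other than HNRNPA1L2.

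HNRNPM, a regulator of the splicing of CD44 in epithelial-mesenchymal transition, was 121 TPM with XPR1 siRNA and 100.4 TPM with control siRNA (ratio 1.20, 1.14 to 1.27). HNRNPR was 83.9 TPM with XPR1 siRNA and 64.0 TPM with control siRNA (ratio 1.31, 1.24 to 1.38). HNRNPM and HNRNPR were both higher in the XPR1-siRNA library. HNRNPU, a nuclear scaffold protein that binds chromatin and RNA, was 119 TPM with XPR1 siRNA and 125 TPM with control siRNA (ratio 0.947, 0.923 to 0.972). Its relative HNRNPUL1, with a role in the DNA damage response, was 181 TPM with XPR1 siRNA and 155 TPM with control siRNA (ratio 1.17, 1.13 to 1.22). HNRNPUL2 was 17.3 TPM with XPR1 siRNA and 15.1 TPM with control siRNA, and its interval of 0.984 to 1.32 covered 1. The 3 U-type genes thus lay on both sides of 1. Exons of COX20 on the opposite strand overlap 15.6% of the exonic bases of HNRNPU, and the part of shared reads was not tested. HNRNPUL2 shares 44.1% of its exonic bases with the readthrough gene HNRNPUL2-BSCL2.

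The 5 members under 1 TPM were that readthrough gene, with 1 read in the XPR1-siRNA library and none in the control library, and the 4 HNRNPC-like copies on chromosome 1. HNRNPCL1, HNRNPCL2 and HNRNPCL3 were listed at 0 in both libraries, and HNRNPCL4 had no read with XPR1 siRNA and 1 read with control siRNA. No fold is given for these. The table held 138 further rows with the same symbol starts that are not protein-coding, 136 of them pseudogenes, which summed to 57.7 TPM with XPR1 siRNA and 70.3 TPM with control siRNA.

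Related genes often keep each other's mRNA in check, so the balance within 20 pairs was set out, with pairs chosen after their values were seen and no test made. The factor between the libraries does not depend on gene length, while the TPM ratio within a library does. The balance of HNRNPH2 to HNRNPH1 was 2.24-fold higher in the XPR1-siRNA library (approximate 95% interval 2.02 to 2.48, from the reckoned reads on the log scale). That of SRSF9 to SRSF1 was 1.58-fold higher, at 0.861 with XPR1 siRNA and 0.546 with control siRNA. HNRNPL to HNRNPLL was 8.28 with XPR1 siRNA and 5.39 with control siRNA, a factor of 1.53 (1.33 to 1.77), and HNRNPD to HNRNPDL was 1.65 with XPR1 siRNA and 1.11 with control siRNA, a factor of 1.48 (1.39 to 1.59). HNRNPR to SYNCRIP, the hnRNP known as Q, was 0.783 with XPR1 siRNA and 0.553 with control siRNA, a factor of 1.42. Balances that were lower included HNRNPA0 to HNRNPA1 (factor 0.693), HNRNPC to its relative RALY (0.721) and HNRNPK to PCBP1 (0.786). HNRNPA3 to HNRNPA1, HNRNPAB to HNRNPD and HNRNPUL1 to HNRNPUL2 had factors of 0.970, 1.04 and 1.03, with intervals that covered 1.

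**Figure D3:**
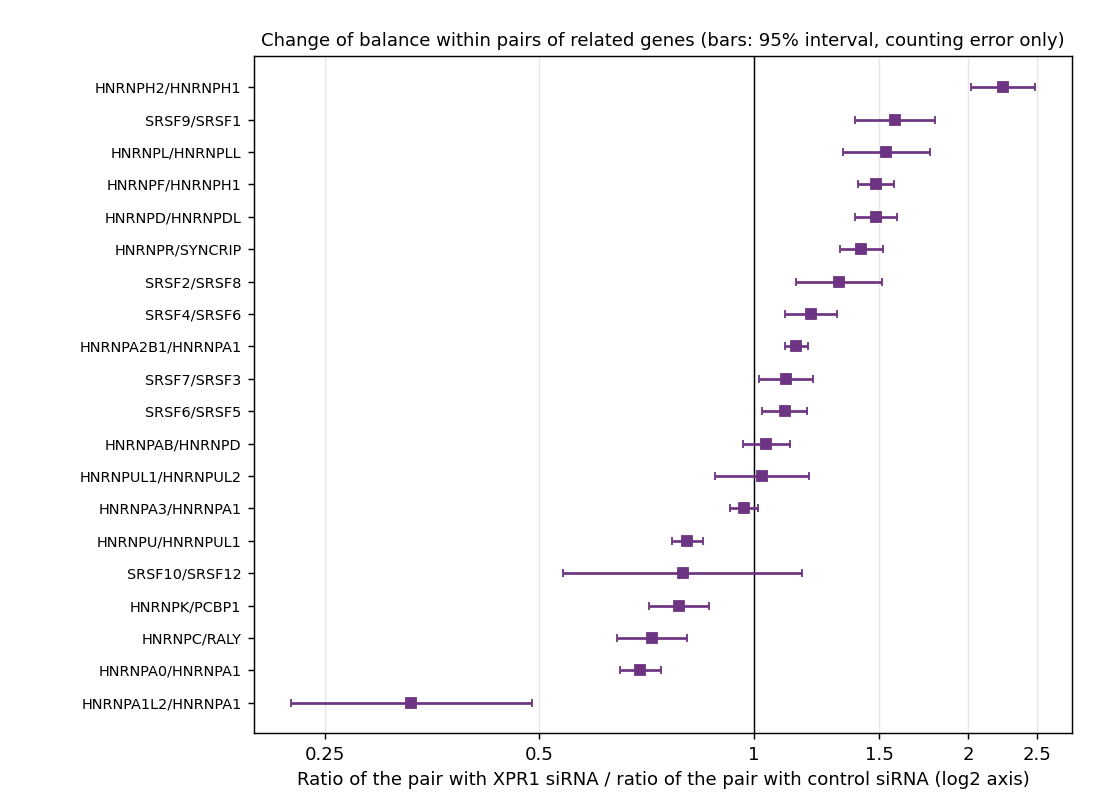
Balance of 20 pairs of related genes in the XPR1-siRNA library divided by that in the control library (log2 axis), with 95% intervals that cover counting error only. HNRNPH2/HNRNPH1 is highest at 2.24 and HNRNPA1L2/HNRNPA1 lowest at 0.331.

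For 9 of the 34 genes, the nearest start of another protein-coding gene, readthrough genes left aside, lies within 1000 bases on the opposite strand. A promoter region can serve both genes in this arrangement. HNRNPA2B1 and its neighbour CBX3 overlap, with 3.97% of the exonic bases of HNRNPA2B1 inside exons of CBX3, and the part of shared reads was not tested. In 5 of these 9 the gene and its neighbour lay on the same side of 0. The neighbour of HNRNPH2 is GLA, which encodes the lysosomal alpha-galactosidase A and starts 283 bases away in GENCODE 29. GLA was 33.7 TPM with XPR1 siRNA and 10.2 TPM with control siRNA (ratio 3.30, 2.62 to 4.18). HNRNPA1 starts 60 bases from CBX5, a heterochromatin protein gene, which was 109 TPM with XPR1 siRNA and 61.8 TPM with control siRNA (ratio 1.76). SRSF7 starts 40 bases from GEMIN6, a subunit of the SMN complex that assembles snRNPs, which was 13.3 TPM with XPR1 siRNA and 7.01 TPM with control siRNA (ratio 1.90), while SRSF7 was slightly lower. HNRNPA2B1 and CBX3 were both higher (CBX3 96.4 TPM with XPR1 siRNA and 79.2 TPM with control siRNA), as were SRSF9 and DYNLL1 (DYNLL1 143 TPM with XPR1 siRNA and 111 TPM with control siRNA), and HNRNPDL and ENOPH1 were both lower (ENOPH1 54.9 TPM with XPR1 siRNA and 67.1 TPM with control siRNA). Besides SRSF7 and GEMIN6, the pairs HNRNPK and RMI1, SRSF11 and LRRC40, and HNRNPUL2 and TTC9C lay on opposite sides of 0. How often other gene pairs of this arrangement lie on the same side was not counted. The neighbours were looked up after the values of the 34 genes were seen.

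**Figure D4:**
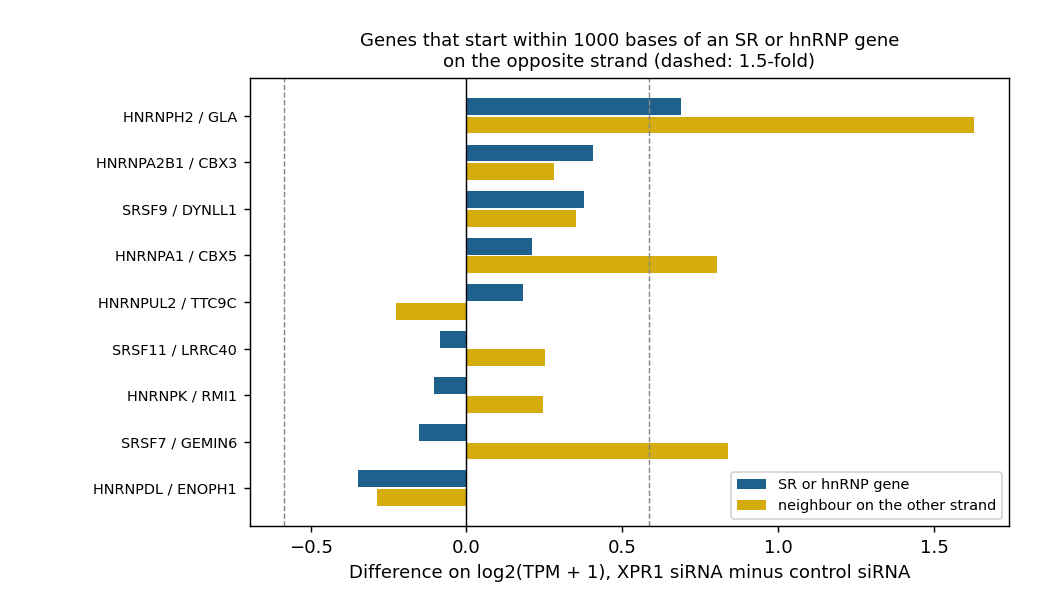
Difference on the log2(TPM + 1) scale, XPR1-siRNA library minus control library, of 9 SR or hnRNP genes (blue) and of their nearest neighbours (yellow). In these 9 the nearest start of another protein-coding gene lies within 1000 bases on the opposite strand. HNRNPH2 and GLA were both past 1.5-fold (dashed lines), at 0.69 and 1.63.

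The region between HNRNPH2 and GLA is shown because both genes had higher values in the XPR1-siRNA library. The RefSeq promoter window of HNRNPH2 on GRCh38.p14, chromosome X, 101407972 to 101408271, plus strand, runs from 250 bases before to 50 after the RefSeq start, and the GENCODE start of GLA is its base 41. Capitals mark matches to CACGTG (the E-box bound by MYC, USF and the TFEB family), to CCAAT and to GGGCGG on either strand, none of which overlap:
HNRNPH2 promoter: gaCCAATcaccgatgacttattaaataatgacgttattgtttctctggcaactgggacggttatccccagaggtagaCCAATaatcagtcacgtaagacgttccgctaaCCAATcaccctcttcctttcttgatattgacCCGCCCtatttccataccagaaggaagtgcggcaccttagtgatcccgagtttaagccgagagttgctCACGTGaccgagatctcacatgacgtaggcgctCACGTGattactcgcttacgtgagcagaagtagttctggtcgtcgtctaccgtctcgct

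The window holds CACGTG at 2 places, 42 and 9 bases before the start, and CCAAT at 3. Of the 34 genes, 31 had a RefSeq promoter window of 300 bases. CACGTG occurred in 7 of those 31, or 22.6%, against 8.88% of 15842 protein-coding promoters. The 15842 were taken whether or not the gene was expressed here, while the 31 belong to expressed genes, so the sets are unlike. The 7 were HNRNPA3, HNRNPD, HNRNPDL, HNRNPH2, HNRNPH3, HNRNPM and HNRNPUL1, of which HNRNPDL and HNRNPH3 had lower and the others higher values with XPR1 siRNA. CCAAT occurred in 15 of 31 against 36.4% of all, and GGGCGG in 21 of 31 against 58.5%. A match is only a match of letters and says nothing of binding.

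Annotated transcripts that end in nonsense-mediated decay are common in these genes. In GENCODE 29, all 12 SRSF genes have at least 1 such transcript, and 13 of the 22 expressed HNRNP genes do. The share over the 34 genes was 73.5%, against 43.5% of the 11698 expressed protein-coding genes. The 34 genes also have more annotated transcripts, a median of 10.5 against 8, and the shares were not adjusted for this. Retained-intron transcripts are annotated for 9 SRSF and 14 HNRNP genes, 67.6% of the 34, against 57.7%. The deposited values do not separate these transcripts from the productive ones.

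Lists of other splicing genes were read against the same background of 21.7% higher and 16.6% lower at 1.5-fold. Among the 8264 protein-coding genes whose mean was 10 TPM or more, 18.5% were higher and 11.2% lower. Most expressed genes of these lists reach that mean, among them 73 of 77 in the core spliceosome list. Of 33 expressed SR-related proteins none was higher and 1 lower, with a median of -0.03, and the lower gene was CCNL1, a cyclin of nuclear speckles (38.2 TPM with XPR1 siRNA and 61.3 TPM with control siRNA). Of 18 SR kinases, importers and arginine methyltransferases 1 was lower and 1 higher. The lower was SRPK1, the main cytoplasmic kinase of SR proteins, at 47.8 TPM with XPR1 siRNA and 94.3 TPM with control siRNA, and the higher was the methyltransferase PRMT6, at 28.4 TPM with XPR1 siRNA and 16.6 TPM with control siRNA. Of 15 hnRNPs with other symbols 1 was higher, PCBP4, at 20.2 TPM with XPR1 siRNA and 9.51 TPM with control siRNA.

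Of 25 other splicing regulators 5 were higher and 3 lower. The higher ones included RBM38 (19.5 TPM with XPR1 siRNA and 11.2 TPM with control siRNA), RBM47 (25.1 TPM with XPR1 siRNA and 15.0 TPM with control siRNA) and RBM24 (15.4 TPM with XPR1 siRNA and 9.27 TPM with control siRNA). The lower ones included CELF1 (60.6 TPM with XPR1 siRNA and 95.4 TPM with control siRNA) and QKI (54.6 TPM with XPR1 siRNA and 82.7 TPM with control siRNA). The core spliceosome list had 14 of 77 genes higher, no gene lower and a median of 0.17. Its highest were the small ring proteins LSM3 (34.8 TPM with XPR1 siRNA and 9.10 TPM with control siRNA) and SNRPG (104 TPM with XPR1 siRNA and 56.3 TPM with control siRNA) and the minor spliceosome subunit SNRNP25 (18.3 TPM with XPR1 siRNA and 7.51 TPM with control siRNA). Of 17 genes of nonsense-mediated decay and the exon junction complex, 1, SMG9, was at least 1.5-fold lower (11.9 TPM with XPR1 siRNA and 18.9 TPM with control siRNA), with a median of -0.24. Genes above 0 were 58 of 77 in the core spliceosome list and 5 of 17 in the decay list. Those shares stand against 8874 of all 16319 genes and 6667 of the 11698 protein-coding genes. In the other lists, 15 of 33 SR-related proteins and 6 of 18 kinases, importers and methyltransferases were above 0. So were 6 of 15 hnRNPs with other symbols and 14 of 25 other regulators. Whether any list differs from the others was not tested.

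**Figure D5:**
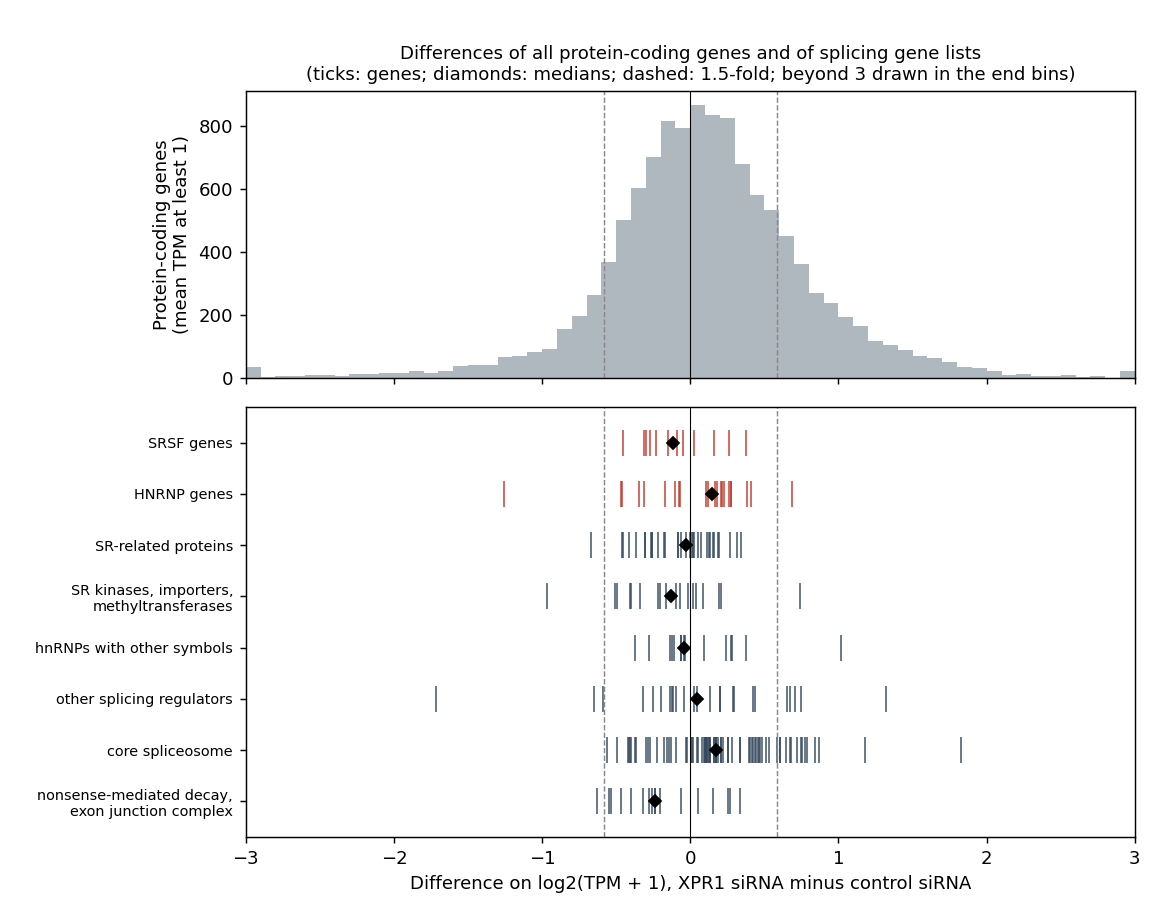
Difference on the log2(TPM + 1) scale, XPR1-siRNA library minus control library, as a histogram of 11698 protein-coding genes (upper panel) and as ticks for SRSF genes, HNRNP genes and 6 other lists, with diamonds at the medians (lower panel). Nearly all SRSF and HNRNP ticks lie inside the dashed lines of 1.5-fold, with HNRNPA1L2 at -1.26 and HNRNPH2 at 0.69 outside.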

How the data were processed

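The authors deposited TPM values for 58884 Ensembl genes in 1 table that holds both libraries, and each column sums to 1000000. The labels' protocols name an RNeasy Plus kit for RNA and a TruSeq RNA kit (version 2) for libraries, which does not mark strand. GRCh38 is the build in the submitters' processing notes, which also name featureCounts 2.0.0, Trimmomatic 0.38 and quality reports by FastQC and MultiQC. For the aligner, the annotation release and the treatment of reads that match several genes, the sources used here give nothing.

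Symbols came from a table of gene identifiers (58472 matched) and otherwise from GENCODE 29, which gave gene types, coordinates and exon lengths. The product of TPM and exonic length fell on steps of 246.3 (XPR1 siRNA) and 237.0 (control siRNA), and 92.5% and 92.4% of the genes at 10 reads or fewer came within 0.01 of such a step, where chance gives 2%. Of the 34 expressed members, 25 had whole reads in both libraries. These reads gave 95% Clopper-Pearson intervals of the TPM ratio, which cover counting error only and are approximate for the other members.

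Differences are log2(TPM + 1), XPR1 siRNA minus control siRNA, for genes whose mean is 1 TPM or more, and this scale understates differences of low genes. With 1 library a group, no p-value is given. Members are all SRSF and HNRNP genes. For the other lists, up to 3 genes at either end with a mean of at least 5 TPM could be named. Members and lists were chosen with earlier results of these data known, and the reckoning of reads, the pairs, neighbours and motifs after seeing the data. The calculations were tested on simulated data. Alternatives were other pseudocounts, floors and scalings and TPM without mitochondrial genes. Python 3.11.15, pandas 2.3.3, SciPy 1.17.1 and matplotlib 3.10.9 were used. The coding sequences of HNRNPA1 and its copy are not reported here.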

Additional observations from a re-analysis of the deposited data

How the results depend on the processing

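Under pseudocounts of 0.1 and 5, floors of 0.1 and 10 TPM, 3 scalings and TPM without mitochondrial genes, the SR and hnRNP genes again included 1 higher and 1 lower gene at 1.5-fold, at every setting. Upper-quartile scaling moved the median difference of all members to -0.10, that of the SRSF genes to -0.21 and that of the HNRNP genes to 0.053, against -0.01, -0.12 and 0.14, with the signs kept. It scales all values of a library by 1 factor. SRSF10 changed sign under the 3 scalings, to between -0.07 and -0.03, and no other expressed member did. Of 204 member values under 6 of these alternatives, the floors left out, 36 moved by more than the half-width of their counting interval. No member changed its side of 1.5-fold. Under the 3 scalings, an alternative added after seeing the data for the intervals, 10 to 11 members had a counting interval above 1 and 17 below, against 13 and 15. Over all genes, the counts of 3541 higher and 2716 lower at 1.5-fold became 2076 and 1485 with a pseudocount of 5, 1633 and 1093 with a floor of 10 TPM, where fewer genes were compared, and 2424 and 1294 among protein-coding genes. Upper-quartile scaling gave 3061 higher and 3119 lower. No paired analysis was possible because the groups hold 1 library apiece, which also leaves no replicate to omit. Depth limits SRSF12, HNRNPA1L2 and HNRNPA1L3, which rest on under 100 reads a library.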
